A study of Homo sapiens with 4 samples.

Results

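The cornified envelope genes examined here were SPRR1A, SPRR1B, SPRR2A, SPRR2D, SPRR3, IVL, TGM1, SBSN and CNFN. They were chosen by gene symbol among the rows of the count tables, and all 9 had a row in each of the 4 plates, out of 19577 genes seen in at least 1 plate. The cells were MCF10A, an untransformed human mammary epithelial line, carrying a green fluorescent histone marker (H2B-GFP). Circular patches started from 10000 cells on fibronectin grew for 6 days in medium with 5% equine serum, EGF (20 ng/ml), insulin (10 µg/ml), cholera toxin (100 ng/ml) and hydrocortisone (500 ng/ml), and these conditions were shared by every group. Light-activated dyes marked the outer and middle bands of a patch, and live single cells were sorted into a 384-well plate and sequenced by SORT-seq, which counts unique molecular identifiers (UMIs) at the 3′ ends of transcripts. The groups differed in the width of the bands: 2 low-resolution plates had bands of 1000 to 1500 µm, and 2 high-resolution plates had an outer and a middle band of 250 µm each. Which band a well came from was not analysed here, so a plate stands for a mixture of sorted populations, and the sorting mixture and the resolution cannot be told apart. All samples come from 1 line.

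The cornified envelope is the insoluble protein layer that replaces the plasma membrane of squamous epithelial cells late in their differentiation. Involucrin (IVL) and the small proline-rich proteins (SPRR) are precursors of this layer, and transglutaminase 1 (TGM1) is the membrane-bound enzyme that crosslinks them. Cornifelin (CNFN) is a further envelope component, and suprabasin (SBSN) is a protein secreted by suprabasal keratinocytes. Mammary epithelium does not cornify, although breast epithelial cells in culture can express squamous genes.

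Depth was higher in the high-resolution plates. The plates held 11709628 to 14992348 transcripts each, and 291, 271, 291 and 293 wells passed the filter in low-resolution replicates 1 and 2 and high-resolution replicates 1 and 2, which makes 1146 cells of 1536 wells, 562 at low and 584 at high resolution. These are fewer cells at each resolution than the study analysed, although its stated limits were applied, so the set of cells is not the same. The median cell had 30520 to 41248 transcripts. The same 384 well barcodes were used in every plate. Of 9 basal epithelial markers 8 were detected in at least 20% of cells in each plate, as were 6 or 7 of 9 luminal markers, while ELF5, a luminal progenitor factor, was at 0 in 3 plates. No fibroblast marker was that frequent in the low-resolution plates and 1 of 7 was in the high-resolution plates. The defining late-stage envelope genes LOR and FLG had no row in any plate.

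Of the 9 genes, 6 lie within 149 kb of chromosome 1 (GRCh38.p14, 152908546 to 153057512), namely IVL (152908546 to 152911886), SPRR1A (152984081 to 152985814), SPRR3 (153001749 to 153003856), SPRR1B (153031203 to 153032900), SPRR2D (153039732 to 153041120) and SPRR2A (153056120 to 153057512). TGM1 is on chromosome 14 (24249114 to 24263177), and SBSN (35523367 to 35528311) and CNFN (42387019 to 42390297) are on chromosome 19. SPRR paralogs resemble each other closely: of the 60-base stretches of GENCODE transcripts, 28.6% of those of SPRR2A and 14.6% of those of SPRR2D also occur in other SPRR2 genes, and 7.11% of those of SPRR1A occur in SPRR1B. Counts of SPRR2A and SPRR2D, and to a lesser degree of SPRR1A and SPRR1B, are therefore uncertain where reads fell in shared stretches. The other 5 genes shared no such stretch with any other gene.

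Promoter sequences of RefSeq were matched by symbol for 7 of the 9 genes, the exceptions being SPRR2D and TGM1. Of these, 5 are shown, because SPRR1B, SPRR1A, SPRR3 and IVL were concentrated in few cells while CNFN was spread evenly. Each sequence (build GRCh38.p14) covers the 250 bases before the gene's start, 5′ to 3′ along the gene's strand, and capitals mark matches to TGANTCA, the palindromic AP-1 motif, which reads the same on both strands.
SPRR1B (chr1:153030953-153031202, + strand): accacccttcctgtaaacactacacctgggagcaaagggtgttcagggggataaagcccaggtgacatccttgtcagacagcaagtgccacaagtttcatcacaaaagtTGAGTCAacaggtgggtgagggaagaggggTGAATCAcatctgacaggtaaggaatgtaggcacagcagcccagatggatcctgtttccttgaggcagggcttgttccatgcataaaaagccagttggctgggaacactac
SPRR1A (chr1:152983831-152984080, + strand): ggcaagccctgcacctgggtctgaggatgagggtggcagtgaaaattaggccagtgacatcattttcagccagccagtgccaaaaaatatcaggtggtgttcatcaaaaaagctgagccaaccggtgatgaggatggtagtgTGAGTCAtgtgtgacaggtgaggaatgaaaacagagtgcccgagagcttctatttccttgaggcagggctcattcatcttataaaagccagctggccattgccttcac
SPRR3 (chr1:153001499-153001748, + strand): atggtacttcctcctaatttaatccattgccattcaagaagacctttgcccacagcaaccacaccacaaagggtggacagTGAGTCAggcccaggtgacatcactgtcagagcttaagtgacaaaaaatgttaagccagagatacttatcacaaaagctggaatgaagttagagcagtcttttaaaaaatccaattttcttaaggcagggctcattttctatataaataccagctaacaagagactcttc
IVL (chr1:152908296-152908545, + strand): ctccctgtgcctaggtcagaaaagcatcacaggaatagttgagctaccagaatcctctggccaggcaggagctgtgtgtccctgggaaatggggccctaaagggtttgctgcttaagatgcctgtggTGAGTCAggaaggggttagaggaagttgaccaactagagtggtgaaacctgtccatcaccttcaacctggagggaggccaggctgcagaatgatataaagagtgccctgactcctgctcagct
CNFN (chr19:42390298-42390547, - strand): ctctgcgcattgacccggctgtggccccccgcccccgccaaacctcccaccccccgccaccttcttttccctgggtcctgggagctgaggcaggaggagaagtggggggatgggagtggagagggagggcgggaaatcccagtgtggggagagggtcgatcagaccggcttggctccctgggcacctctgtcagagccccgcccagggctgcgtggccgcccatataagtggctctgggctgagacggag

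The motif was present in 6 of the 7 windows, all but that of CNFN, against 6.57% of 35116 promoter windows of the same length and 4.99% of the 13278 that belong to genes in these files. SPRR1B had a pair of matches, TGAGTCA from 141 to 135 bases and TGAATCA from 111 to 105 bases before the start. The matches in SPRR1A, SPRR3 and IVL began 108, 170 and 123 bases before the start. SPRR2A and SBSN, not printed, had 1 and 2 matches. These matches describe letters in a window and say nothing of whether a factor was bound there.

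Most cells held few envelope transcripts and a small number held many. A UMI of at least 1 of the 9 genes was found in 81.4% and 83.4% of low-resolution cells and in 76.6% and 72.0% of high-resolution cells. Thinned to 10000 UMIs per cell, these shares were 54.7%, 54.1%, 47.9% and 37.5%. CNFN was the most widespread, with a UMI in 56.7% and 49.1% of low-resolution cells and 43.3% and 44.7% of high-resolution cells. SPRR1B, a keratinocyte envelope precursor, followed with 33.7%, 37.6%, 39.9% and 30.7%, and the transglutaminase TGM1 with 35.4%, 35.1%, 29.9% and 26.6%. IVL was found in 20.3%, 26.2%, 17.2% and 19.1% of cells. SPRR1A stood at 16.5%, 15.9%, 12.7% and 8.53%, and SPRR3, a precursor typical of non-keratinizing squamous epithelium, at 16.2%, 15.1%, 8.59% and 5.80%. Compared within plates, SPRR1B was found in more cells than TGM1 in 3 of 4 plates and SPRR1A in more cells than SPRR3 in 4 of 4, although the ranges of each pair over the plates overlapped.

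SPRR2D was found in 6.19% and 7.75% of low-resolution cells and in 10.3% and 9.56% of high-resolution cells, so that SPRR3 lay above it in the low-resolution plates and below it in the high-resolution plates. SPRR2A was found in 2.73% to 7.01% of cells, in fewer than SPRR2D in 4 of 4 plates. SBSN was close to undetected, with 15 UMIs in 14 of the 1146 cells, and it stayed below the filter on low counts, so that 8 of the 9 genes were tested with edgeR. With no such filter SBSN was tested too and did not pass in the 4 comparisons run that way (edgeR adjusted p from 0.413 to 0.785). The 95% exact binomial intervals of these shares, drawn in the plot of shares by plate, cover counting error only. In wells under the minimum of 2000 features, which held a median of 1398 to 4889 transcripts, a member UMI was found in 6.90% to 28.0%. Per 10000 transcripts these wells held 0.456 to 1.07 member UMIs, against 0.914 to 2.18 in the cells kept.

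**Figure D1:**
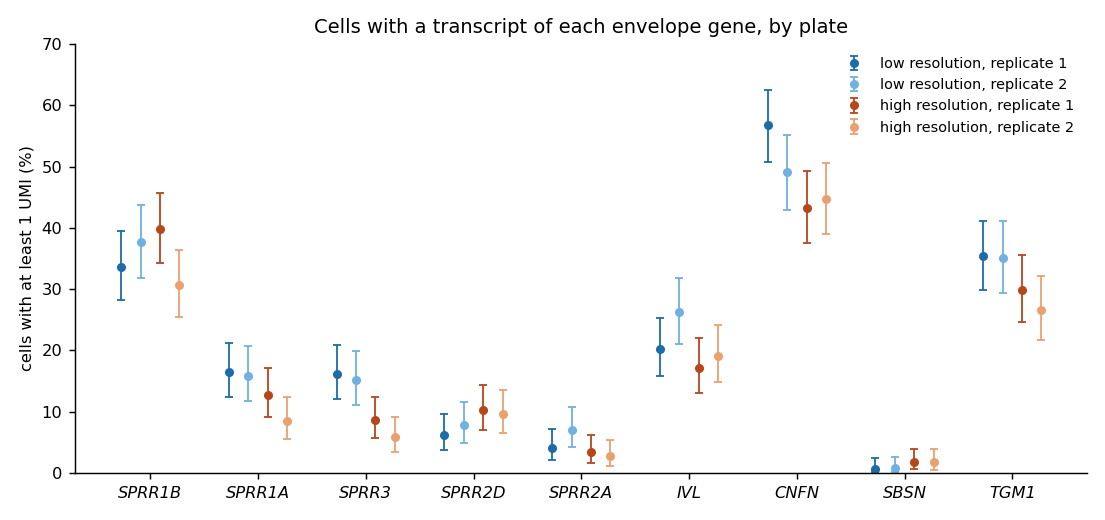
Share of cells with at least 1 UMI (y axis, percent) for each of the 9 genes in each plate (colours). Points are plates and bars are exact binomial 95% intervals. CNFN sits highest at 43.3% to 56.7%, SBSN lowest at 0.687% to 1.72%, and the SPRR3 points of the low-resolution plates lie above those of the high-resolution plates.

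By level the order was another one. As a mean over cells of UMIs per 10000, a quantity that for 3′ tags does not scale with transcript length, SPRR1B led with 0.567 ± 0.175 (SD, n = 4 plates), ahead of CNFN with 0.244 ± 0.0544 and SPRR3 with 0.209 ± 0.133. CNFN lay above SPRR3 in 3 of 4 plates. IVL (0.143 ± 0.0604), TGM1 (0.136 ± 0.0309) and SPRR1A (0.108 ± 0.0557) changed their order between plates. SPRR2D (0.0507 ± 0.0177), SPRR2A (0.0249 ± 0.0194) and SBSN (0.00269 ± 0.000684) were the lowest.

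The difference between the orders went together with how unevenly transcripts were spread over cells. The 5% of cells richest in SPRR3 held 90.0%, 87.2%, 93.6% and 97.3% of its UMIs in low-resolution replicates 1 and 2 and high-resolution replicates 1 and 2, where the median of genes with a like total was 20.2% to 32.6%. For SPRR1B the same share was 78.3%, 68.1%, 77.9% and 74.2%, against medians of 17.5% to 19.0%. SPRR1A (64.4% to 86.6%) and IVL (58.1% to 74.2%) were also concentrated. CNFN (19.0% to 26.4%) and TGM1 (29.1% to 37.1%) were not far from their medians of 23.1% to 25.0% and 27.5% to 30.2%. The median cell with SPRR1B held 1 or 2 UMIs of it, while the richest cell held 165, 56, 247 and 145. The ratio of variance to mean of SPRR1B was 71.8, 26.7, 98.4 and 52.6, where at most 2 of the 1461 to 2251 genes with a like total were above it. SPRR2D stood at 75.0% to 86.9% against medians of 40.0% to 60.9%. For genes as rare as SPRR2A the median itself reached 100% in 2 plates, so this measure could not be read there.

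**Figure D2:**
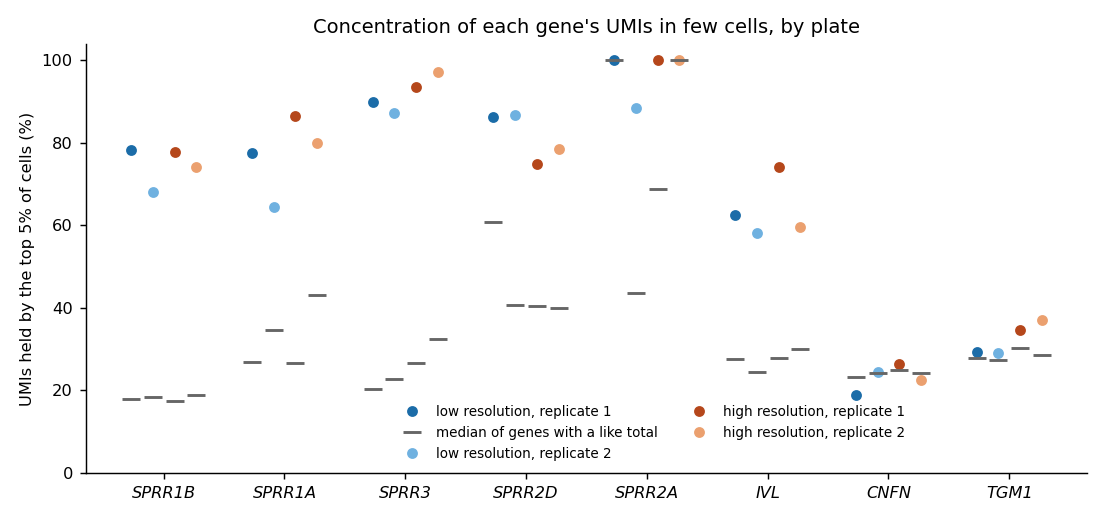
Percent of a gene's UMIs held by the 5% of cells with the most of it (y axis) for the 8 tested genes in each plate (coloured points). Grey dashes mark the median of genes whose total in that plate is similar. SPRR1B, SPRR1A, SPRR3 and IVL lie far above their dashes in every plate, and CNFN and TGM1 lie near theirs.

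Single cells carried a large part of the signal. The richest cell of each plate held 296, 144, 499 and 204 member UMIs, which was 13.8%, 8.46%, 30.1% and 16.5% of the plate's total. The next cell held 232, 91, 83 and 71. The cell of 499 UMIs, in high-resolution replicate 1, held 247 of SPRR1B, 108 of SPRR1A, 86 of SPRR3 and 49 of IVL but 2 of CNFN and 0 of TGM1. These 4 cells held 71017 to 77511 transcripts and 6963 to 7404 features, below the maximum of 9000, and doublets were not called. Without them the mean level was 0.502 ± 0.197 for SPRR1B and 0.169 ± 0.113 for SPRR3, and that of SPRR1A in high-resolution replicate 1 went from 0.101 to 0.0526. SPRR1B still lay above CNFN in 4 of 4 plates, while SPRR3 lay above TGM1 and IVL in 2 of 4. The top 5% of cells then held 65.0% to 76.1% of SPRR1B, 84.2% to 97.2% of SPRR3, 64.3% to 78.7% of SPRR1A and 58.3% to 64.2% of IVL UMIs. The ratio of variance to mean of SPRR1B became 66.4, 24.2, 23.8 and 14.5, where at most 4 of the genes with a like total were above it.

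The genes were found together in part. SPRR1B was detected in 62.5% and 60.5% of low-resolution cells with SPRR1A and in 59.5% and 72.0% of such high-resolution cells, against 28.0%, 33.3%, 37.0% and 26.9% of the cells without SPRR1A, where the 95% exact binomial intervals overlapped in high-resolution replicate 1. In cells with SPRR3 the share with SPRR1B was 61.7%, 58.5%, 76.0% and 76.5%, against 28.3%, 33.9%, 36.5% and 27.9% in the others, without overlap of the intervals. Thinned to 10000 UMIs per cell, the SPRR3 intervals remained apart in every plate (55.6% to 58.3% against 12.7% to 18.8%), while those of SPRR1A overlapped in both high-resolution plates (31.6% against 17.7% and 50% against 13.0%, with 19 and 6 SPRR1A cells). CNFN set the SPRR1B cells apart less, with 41.2%, 42.9%, 44.4% and 35.9% against 23.8%, 32.6%, 36.4% and 26.5%, where the intervals of the last 3 pairs overlapped. Between 17.2% and 17.3% of low-resolution cells held 4 or more of the 9 genes, as did 11.3% and 9.22% of high-resolution cells. Thinned, these shares were 5.92%, 3.73%, 2.47% and 2.41%. No cell held more than 7.

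Across the cells of a plate, the median Spearman rho over the 36 pairs was 0.104, 0.0684, 0.123 and 0.0862 (n = 291, 271, 291 and 293 cells), compared with 0.0178 to 0.0223 over pairs of genes detected in at least 20% of cells. SBSN had no UMI left in 2 of the thinned plates, so the effect of depth was read over the 28 pairs without it. Their median was 0.137, 0.107, 0.167 and 0.120 at full depth and 0.125, 0.111, 0.0592 and 0.118 thinned, so that high-resolution replicate 1 went from the highest to the lowest. The highest mean rho over plates were those of SPRR1B with SPRR3 (0.291, range 0.252 to 0.350), SPRR1A with SPRR1B (0.285, 0.210 to 0.327), SPRR3 with IVL (0.271, 0.214 to 0.321) and SPRR1A with IVL (0.256, 0.191 to 0.370). TGM1 followed IVL (0.179) and SPRR1B (0.158) most closely, and CNFN reached at most 0.111, with SPRR1B. All points of a correlation share a plate and its depth, and in counts this sparse the weak values are no finding.

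**Figure D3:**
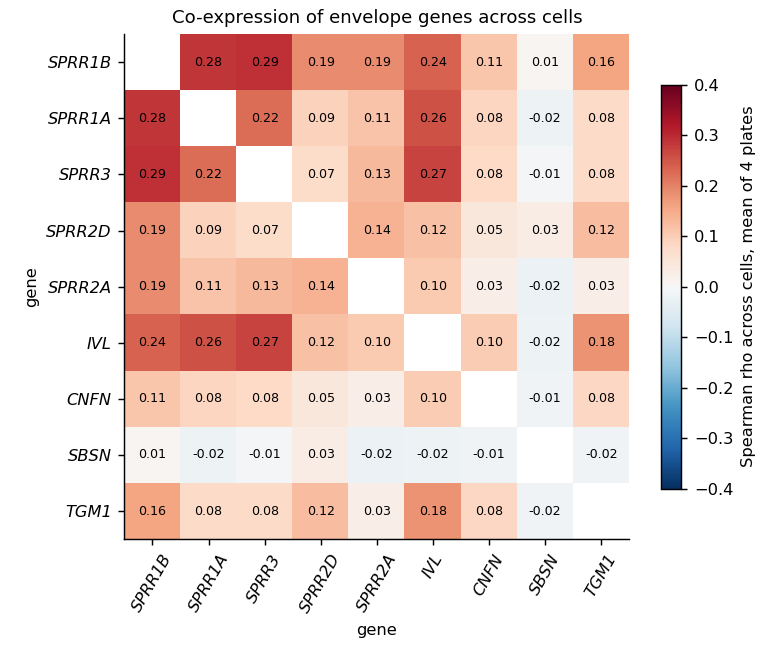
Spearman rho across cells between each pair of the 9 genes, as the mean of the 4 plates (number and colour in each square). SPRR1B, SPRR1A, SPRR3 and IVL form the darkest squares, from 0.22 to 0.29, and SBSN has values between -0.02 and 0.03.

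Envelope transcripts were concentrated in cells at the epithelial end of the epithelial-to-mesenchymal transition (EMT) score. This score is the difference of a mesenchymal and an epithelial gene set score per cell, and none of the 9 genes is in either set. The rho of the summed level of the 9 genes with the score was -0.604, -0.610, -0.519 and -0.595. Thinned to 10000 UMIs it was -0.500, -0.419, -0.396 and -0.469. The summed level had a mean rho of 0.46 with CDH1 and 0.42 with EPCAM, epithelial adhesion genes, and of -0.38 with VIM and -0.43 with FN1, mesenchymal genes. Of single genes at full depth, IVL (-0.39), SPRR1B (-0.38) and TGM1 (-0.34) had the strongest mean rho with the score and SBSN (0.03) the weakest. Thinned, SPRR1B (-0.30) and IVL (-0.27) still led, while TGM1 (-0.20) came after SPRR3 (-0.23) and SPRR1A (-0.22). A rho of -0.2 or lower was found for 6 or 7 of the 9 genes in each plate, and for 7.66% to 10.1% of the 8032 genes that each plate had in 20% or more of its cells. Only 3 of the 9 genes are among those 8032.

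To compare levels over plates, the cells of each plate were ranked by the EMT score and cut into 3 equal groups, called EMT-low, middle and EMT-high. These are ranges of a continuous score, and 143 of the 1146 cells lay within 0.05 of a cut. VIM, an intermediate filament gene of the mesenchymal set, rose 5.44 on the log2 scale between EMT-low and EMT-high cells, and CDH1, of the epithelial set, fell by 4.53. All 8 tested envelope genes fell, where 20.1% of the 11296 genes tested were lower and 20.9% higher (41% in all). Of the 11179 genes outside both sets, 19.9% were lower and 20.7% higher. The median log2 fold change of the 8 envelope genes was -4.00, against 0.01 over all genes.

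SPRR3 differed most. Its mean level was 1.06, 0.638, 0.401 and 0.205 UMIs per 10000 in EMT-low cells of the plates and 0.0236, 0.0114, 0.00609 and 0 in EMT-high cells. Every plate had a lower level in EMT-high cells, and high-resolution replicate 2 had no SPRR3 UMI there at all. SPRR3 fell by 6.04 (SE 0.23) on the log2 scale (edgeR's quasi-likelihood test with Benjamini-Hochberg adjustment, adjusted p = 3.25e-09, lower in 4 of 4 plates). Summed over the plates, 946 UMIs in EMT-low cells stood against 13 in EMT-high cells.

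SPRR1B had levels of 1.98, 1.48, 1.23 and 0.848 in EMT-low cells and 0.0671, 0.0662, 0.100 and 0.0333 in EMT-high cells, without overlap. It fell by 4.54 (SE 0.17, edgeR adjusted p = 3.25e-09), and the plates' own log2 ratios averaged -4.54 ± 0.57 (SD, n = 4). IVL went from 0.398, 0.418, 0.267 and 0.219 to between 0.0117 and 0.0139, and fell by 4.52 (SE 0.20, edgeR adjusted p = 8.48e-09). The EMT-high levels of IVL rest on 6, 5, 4 and 6 UMIs.

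SPRR1A (-4.11, SE 0.23), SPRR2D (-3.90, SE 0.38) and SPRR2A (-3.26, SE 0.47) fell as well, with edgeR adjusted p of 7.81e-08, 7.40e-06 and 0.000163. The crosslinking enzyme TGM1 changed less, from 0.218, 0.245, 0.199 and 0.251 to 0.0526, 0.0487, 0.0456 and 0.0249, and fell by 2.59 (SE 0.20, edgeR adjusted p = 1.05e-06). CNFN changed least, from 0.428, 0.341, 0.285 and 0.301 to 0.153, 0.139, 0.115 and 0.139, and fell by 1.20 (SE 0.14, edgeR adjusted p = 2.46e-05). A CNFN UMI was still found in 34.0% to 37.1% of EMT-high cells, an IVL UMI in 4.12% to 6.19%.

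**Figure D4:**
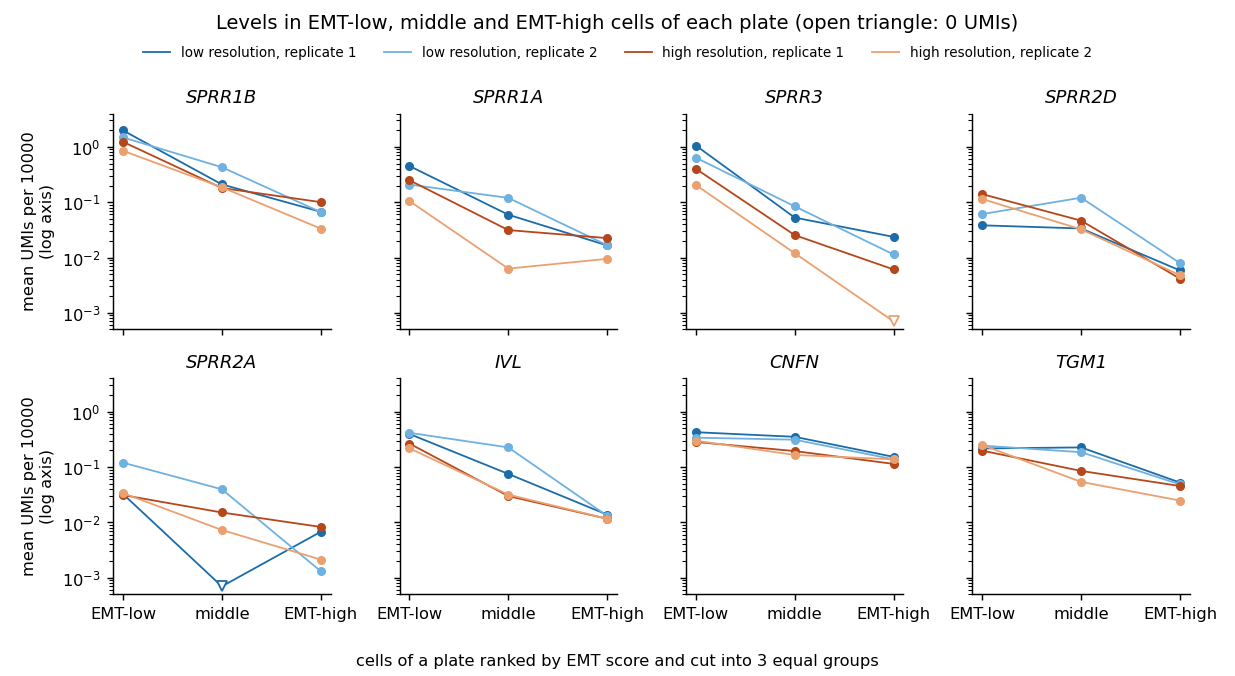
Mean UMIs per 10000 (log axis) of the 8 tested genes in EMT-low, middle and EMT-high cells of each plate (coloured lines). Open triangles stand for 0 UMIs. All lines end lower than they begin, by most for SPRR3 and by least for CNFN, while middle cells lie above EMT-low cells for TGM1 and SPRR2D in 1 plate each and below EMT-high cells for SPRR1A and SPRR2A in 1 plate each.

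The fall was also found in subsets of the data. All 8 genes passed the test without the richest cell of each plate, within G1 cells, without any 1 plate, and with mitochondrial rows left out. All 7 that could be tested passed it when cells were thinned to 10000 UMIs. Of all genes, 4539 of 11280 passed without the richest cells, 3995 of 10264 within G1 cells and 2950 of 8644 thinned. With mitochondrial rows left out 4584 of 11232 did. EMT-low cells had a higher median mitochondrial share (31.7% to 33.8%) than EMT-high cells (25.9% to 29.0%). The summed level of the 9 genes had a mean rho of 0.24 with that share. All 8 passed when no limit was set on the share, as did 5276 of all 11520 genes. That setting adds wells with a high share and does not balance it between the groups. The part of the mitochondrial share in the fall was not tested. Of the 55 cells in the top 5% of a plate by summed level, 48 were EMT-low, 7 middle and 0 EMT-high.

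Whether the fall differed between resolutions was tested as an interaction, since the width of the bands could change which cells a plate holds. None of the 8 genes passed (edgeR's quasi-likelihood test with Benjamini-Hochberg adjustment) and 1 had an unadjusted p under 0.05, where 2.25% of 11296 genes passed, 0.779% higher and 1.47% lower. That gene was SPRR1B, with a difference of 0.77 (SE 0.34) on the log2 scale and an adjusted p of 0.286. DESeq2 was not run on this difference. The standard errors of the other genes reached 1.22, for SPRR2A.

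Other genes of squamous differentiation were lower in EMT-high cells too. All 8 tested differentiation keratins fell, led by KRT13 (-5.83), KRT4 (-4.53) and KRT6B (-4.34). The KRT13 value rests on few counts (SE 1.04). All 7 tested further envelope precursors fell as well, among them the elafin gene PI3 (-3.52), sciellin SCEL (-3.22) and envoplakin EVPL (-2.11). Of 8 desquamation proteases and inhibitors 8 fell, led by the kallikreins KLK8 (-5.35), KLK6 (-5.04) and KLK5 (-4.80). Of 16 regulators 9 fell and 3 rose, and OVOL1 (-5.27), GRHL3 (-4.74) and GRHL1 (-4.17) changed most. Of 5 barrier lipid genes 3 fell and 1 rose, and of 4 alarmins 3 fell. Basal markers were divided, with 4 of 8 lower and 2 higher, while all 7 luminal markers fell. The luminal markers EPCAM, KRT7, KRT19 and MUC1 belong to the epithelial set, so their fall was largely built into the score. Neither the 1 fibroblast marker nor the 2 immune and endothelial markers tested passed. The part of epithelial identity in the envelope genes' fall was not tested.

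Among the genes whose level followed the summed level of the 9 most closely were FXYD3 (mean rho 0.579 over 4 plates), PERP (0.536), KLK5 (0.530), KLK8 (0.526), CD24 (0.523), CLDN7 (0.518), RAB25 (0.518), CLDN4 (0.516) and C1orf116 (0.513). Of these, CD24, CLDN7 and RAB25 belong to the epithelial set. For the 9 genes named here the mean rho with the EMT score lay between -0.842 and -0.716. The lowest values belonged to the metallothionein MT2A (-0.517), EMP3 (-0.508), ANXA5 (-0.495), AKR1B1 (-0.473) and SERPINE2 (-0.465). Among 8032 genes 144 had a mean rho of at least 0.3 and 103 of at most -0.3.

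By cell cycle phase, most of the envelope genes were lower outside G1 in counts summed over cells. G1 cells made up 68.0% and 70.8% of the low-resolution plates and 52.9% and 50.9% of the high-resolution plates. In S cells 5 of 8 genes were lower than in G1 cells, where 20.8% of 11329 genes were lower and 22% higher (42.8% in all). In G2M cells also 5 of 8 were lower, where 21.4% were lower and 22.1% higher (43.5% in all). The 5 genes were SPRR1A, SPRR1B, SPRR3, IVL and CNFN in both comparisons. Both comparisons share the G1 cells.

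SPRR1B had levels of 1.04, 0.791, 0.725 and 0.540 UMIs per 10000 in G1 cells, 0.190, 0.345, 0.259 and 0.240 in S cells and 0.118, 0.322, 0.252 and 0.0849 in G2M cells. The G1 levels lay above all others. For the share of cells with an SPRR1B UMI the order was not the same in every plate. It was 34.3%, 37.5%, 35.7% and 27.5% in G1 cells and 33.3%, 35.3%, 50.7% and 38.9% in S cells. Thinned to 10000 UMIs, it was 24.4%, 23.6%, 19.3% and 14.4% in G1 and 17.1%, 12.5%, 20.8% and 12.5% in S cells. Across cells, SPRR1B had a mean rho of 0.01 with the S marker score and -0.05 with the G2M marker score. On the log2 scale SPRR1B changed by -1.55 (SE 0.22) in S cells and -2.22 (SE 0.23) in G2M cells (edgeR adjusted p = 4.92e-06 and 4.29e-08). SPRR1A changed by -2.34 (SE 0.37) and -1.95 (SE 0.33), with edgeR adjusted p of 1.49e-05 and 4.15e-05. IVL changed by -1.21 (SE 0.19) and -1.75 (SE 0.20), and its log2 ratios of G2M to G1 were close together in the plates, from -1.86 to -1.52. CNFN changed by -0.91 (SE 0.14) and -0.72 (SE 0.14). Without the richest cell of each plate the same 5 genes passed in both comparisons, with SPRR1B at -1.38 and -1.76, SPRR1A at -1.91 and -1.27, IVL at -1.05 and -1.49 and CNFN at -0.90 and -0.72. In that setting 2316 of 11329 genes were lower and 2495 higher in S cells, and 2368 lower and 2486 higher in G2M cells.

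SPRR3 varied by plate. Its levels were 0.543, 0.282, 0.238 and 0.131 in G1 cells, 0.0345, 0.299, 0.0303 and 0.00882 in S cells and 0.0171, 0.0381, 0.0483 and 0.0116 in G2M cells. S cells were lower than G1 cells in 3 of 4 plates. In low-resolution replicate 2 the richest cell was in S phase, and its 71 SPRR3 UMIs were nearly all of the 73 that the 34 S cells held. The log2 fold change of SPRR3 in S cells was -1.90 (SE 0.45, edgeR adjusted p = 0.00143) with the richest cell of each plate and -3.40 (SE 0.31, adjusted p = 3.88e-09) without it. In G2M cells it was -3.69 (SE 0.56, adjusted p = 8.90e-06) with these cells and -3.11 (SE 0.29, adjusted p = 3.75e-09) without them.

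TGM1, SPRR2A and SPRR2D did not pass in either comparison, with log2 fold changes of -0.35 (SE 0.18), -1.04 (SE 0.50) and -0.58 (SE 0.45) in S cells. In G2M cells these were -0.43 (SE 0.18), -0.97 (SE 0.48) and -0.34 (SE 0.43). The edgeR adjusted p of TGM1 was 0.128 and 0.0602. With no filter on low counts SPRR2A passed in S cells (adjusted p = 0.0493). Without low-resolution replicate 2, TGM1 (-0.64, adjusted p = 0.0148) and SPRR2D (-1.26, adjusted p = 0.0290) passed in G2M cells, and TGM1 also did when cells were thinned (-1.01, adjusted p = 0.0268).

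**Figure D5:**
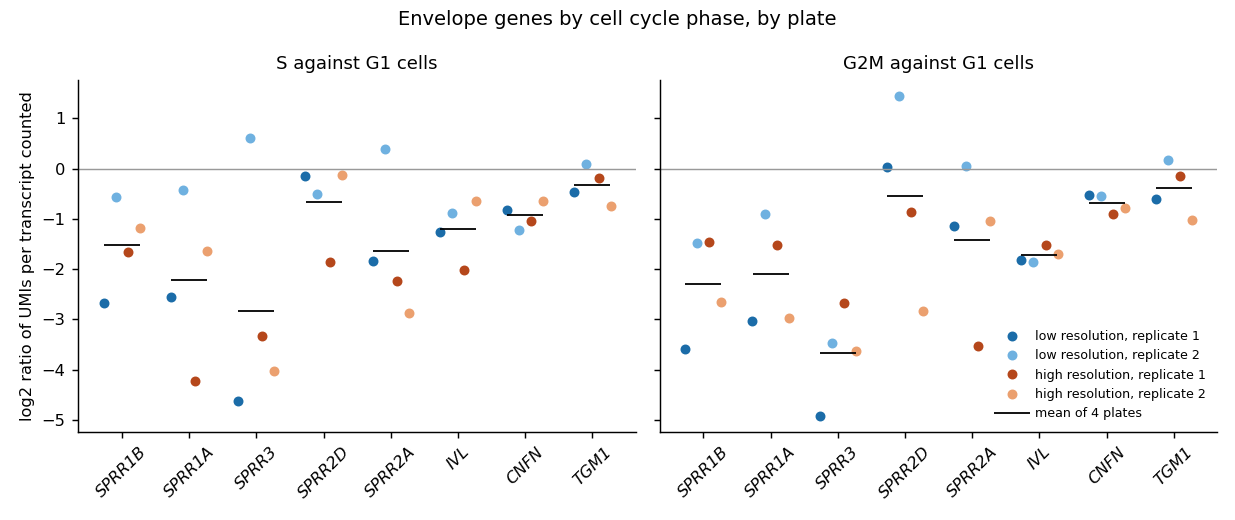
Log2 ratio (y axis) of each gene's UMIs per transcript in S cells (left) and G2M cells (right) to those in G1 cells, by plate (coloured points), with black dashes at the mean of the 4 plates. SPRR1B, SPRR1A, IVL and CNFN lie below 0 in all 4 plates on both sides, and SPRR3 has 1 plate above 0 in S cells.

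S and G2M cells held more transcripts than G1 cells, with medians of 43350 to 49470 and 40840 to 57400 against 26620 to 34560, and levels are relative to a cell's total. Phase and EMT score were related as well: 59.8% to 79.4% of EMT-low cells were in G1, compared with 39.2% to 71.1% of EMT-high cells. Within EMT-low cells alone, 5 of 8 genes were lower in S and 6 of 8 in G2M cells, the sixth being SPRR2D (-1.38, adjusted p = 0.0330). Of 9061 genes tested there, 1161 were lower and 1430 higher in S cells, and 1350 lower and 1530 higher in G2M cells. In the thinned cells 5 of 6 and 6 of 6 tested envelope genes were lower. Of all 8107 genes tested in those, 1156 were lower and 1306 higher in S cells, and 1320 lower and 1393 higher in G2M cells. Of the 55 cells richest in envelope UMIs, 48 were in G1, 4 in S and 3 in G2M.

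Of the other lists, 7 of 8 desquamation genes fell in S and 7 of 8 in G2M cells, with the caspase gene CASP14 (-2.97 and -1.79) and KLK8 (-1.61 and -1.62) among them. Of 7 further envelope precursors 4 fell in each, with cystatin A (CSTA) at -1.16 in G2M cells, and 1 rose in S cells. Of 16 regulators 11 fell in S and 9 in G2M cells, including HOPX (-2.14 and -1.81) and NOTCH3 (-1.20 and -1.13), and 1 rose in each, the AP-1 gene FOSL1 (0.91 and 0.86). Of 7 differentiation keratins 3 fell and 2 rose in S cells and 4 fell and 1 rose in G2M cells, with KRT4 lower (-2.40 and -1.11) and KRT6B higher by 1.05 in S cells. Of 4 alarmins 3 and 4 fell, and of 6 barrier lipid genes 1 fell in each. All 7 proliferation markers rose in both comparisons, which were defined by genes of that kind. Markers of cell types moved with phase as well. Of 7 luminal markers 3 fell and 2 rose in S cells and 4 fell and 2 rose in G2M cells, among them MUC1 (-0.87 and -0.98). Of 8 basal markers 2 fell and 3 rose in S cells and 4 fell and 1 rose in G2M cells, among them KRT15 (-0.71 and -0.92). Of 2 immune and endothelial markers 2 fell in S and 1 in G2M cells, CD68 in both (-0.89 and -1.24), and the 1 fibroblast marker, COL1A1, fell in G2M cells (-0.76). Their part in the envelope genes' difference by phase was not tested.

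Between resolutions, fewer differences were found. In high-resolution plates 3 of 8 genes were lower, SPRR3, IVL and CNFN, where 6.18% of 12437 genes were lower and 6.26% higher (12.4% in all). None of the 8 was higher. SPRR3 had a mean level of 0.378 and 0.244 UMIs per 10000 in low-resolution and 0.144 and 0.0718 in high-resolution plates. It fell by 1.65 (SE 0.27) on the log2 scale (edgeR's quasi-likelihood test with Benjamini-Hochberg adjustment, adjusted p = 0.00283). Cells with SPRR3 numbered 47 and 41 against 25 and 17, while a cell with SPRR3 held on average 9.83 and 6.66 against 6.88 and 6.41 UMIs, so that the share of cells was separate between the groups and the amount per such cell was not.

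CNFN had levels of 0.312 and 0.265 against 0.198 and 0.202 and fell by 0.53 (SE 0.16, edgeR adjusted p = 0.0486). IVL had 0.162 and 0.219 against 0.103 and 0.0871 and fell by 0.72 (SE 0.22, edgeR adjusted p = 0.0487). Both lie close to the threshold of 0.05. Neither passed with DESeq2 (adjusted p = 0.138 for CNFN and 0.0945 for IVL), and CNFN did not in thinned cells (-0.31, adjusted p = 0.382). Low-resolution replicate 1 was sequenced on another flow cell than the other 3 plates. Without it SPRR3 (-1.24, adjusted p = 0.0243) and IVL (-0.94, adjusted p = 0.0303) passed, and CNFN did not (-0.39, adjusted p = 0.205). Without high-resolution replicate 2 SPRR3 passed (-1.23, adjusted p = 4.76e-06), and neither IVL (-0.47, adjusted p = 0.270) nor CNFN (-0.44, adjusted p = 0.254) did. IVL also did not pass without low-resolution replicate 2 (-0.46, adjusted p = 0.247), and CNFN did not without high-resolution replicate 1 (-0.60, adjusted p = 0.0777). When wells over the mitochondrial limit were included, SPRR3 passed (-1.13, adjusted p = 0.0153) and IVL did not (-0.37, adjusted p = 0.211).

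The calls of SPRR1B and SPRR1A moved with single cells and plates. SPRR1B had levels of 0.753 and 0.657 against 0.504 and 0.355 and a log2 fold change of -0.51 (SE 0.22, edgeR adjusted p = 0.148). SPRR1A had 0.176 and 0.115 against 0.101 and 0.0400 and a log2 fold change of -0.48 (SE 0.44, adjusted p = 0.521). Without the richest cell of each plate these became -0.91 (SE 0.20, edgeR adjusted p = 0.0115) and -1.44 (SE 0.31, edgeR adjusted p = 0.0102), and 5 of 8 genes were lower. Of all 12421 genes tested in that setting, 795 were lower and 790 higher. Without high-resolution replicate 1, which held the richest cell, they were -0.98 (adjusted p = 1.04e-05) and -1.69 (adjusted p = 4.37e-06). With wells over the mitochondrial limit SPRR1B stood at -0.09 (edgeR adjusted p = 0.858). Depth mattered too: thinned to 10000 UMIs per cell, 3 of 7 tested genes were lower, with CNFN, TGM1 and SPRR2D not among them. Of all 10443 genes tested in the thinned cells, 515 were lower and 569 higher. TGM1, with 0.166 and 0.160 against 0.110 and 0.110, did not pass (-0.52, SE 0.17, adjusted p = 0.0691). SPRR2A (-0.96, SE 0.53) and SPRR2D (0.23, SE 0.32) did not pass either, although SPRR2A did without low-resolution replicate 1 (-1.63, adjusted p = 0.0323).

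In EMT-low cells SPRR3 stood at 1.06 and 0.638 against 0.401 and 0.205, and IVL at 0.398 and 0.418 against 0.267 and 0.219, in the order of the whole plates. The EMT score was fitted separately for each experiment, so EMT-low cells of the 2 groups need not be alike. Markers of the EMT and of other cell states moved with the resolution. Of 7 EMT markers VIM (0.94), FN1 (0.77) and SNAI2 (1.36) rose in high-resolution plates, CDH1 (-0.68) fell and 3 did not pass. Of 7 luminal markers 3 fell, led by KRT19 (-1.12), and 1 rose, and of 8 basal markers 4 rose and 2 fell. Of 7 proliferation markers MCM5 (0.86) and MCM2 (0.65) rose, and 1 of 2 immune and endothelial markers, PECAM1, rose by 0.55. Their part in the envelope genes' difference was not tested.

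Of 10 tested desquamation genes 9 were lower in high-resolution plates, with KLK7 (-1.49), KLK8 (-1.47) and the serpin gene SERPINB3 (-3.39) changing most. The SERPINB3 value rests on few counts (SE 0.79). All 4 alarmins were lower too, led by S100A8 (-1.54) and LCN2 (-1.46). Of 9 differentiation keratins 3 fell and 2 rose, KRT4 (-1.88) and KRT23 (-1.21) against KRT6B (1.03). Of 7 further envelope precursors CSTA fell by 0.83 and dermokine DMKN rose by 0.43. Of 16 regulators 6 fell, led by GRHL1 (-1.30), and the AP-1 genes FOSL1 (1.28) and JUNB (1.17) rose.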

How the data were processed

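Single MCF10A cells of 4 patches (2 low-resolution, 2 high-resolution, 1 SORT-seq plate each) were analysed, with the plate as the replicate. The labels number the replicates and do not say whether the patches were grown on separate days. The deposited tables hold expected counts per gene and well, made by the authors from distinct UMIs with a correction for UMIs drawn repeatedly and without scaling. The submitters' processing notes name STAR 2.7.3a, hg38 and Seurat 4, while the annotation is not given in the sources used here. The correction for 4096 UMI sequences was undone to whole UMIs (largest distance from a whole number 5e-13).

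A well was kept at 2000 to 9000 features and a mitochondrial share below 40%, doublets were not called further, and spike-ins stayed out of totals. Levels are UMIs per 10000 of a cell. For thinned values each cell was drawn down to 10000 UMIs, leaving out 2 to 7 cells per plate. EMT scores are M minus E set scores from an implementation of gene set variation analysis (64 E and 98 or 100 M genes, 1 fit per experiment). Phases were called with Seurat 5.3.0 (42 S and 54 G2M genes). Sums of expected counts over the cells of a plate, rounded, or of a plate and EMT or phase group with plate as a term, were tested with edgeR 4.0.16 (quasi-likelihood, TMM, filterByExpr, threshold 0.05 over all genes tested), with DESeq2 1.42.0 as an alternative, and the fits were tested on simulated data. In the simulated data, with 1 spread shared by all genes, 14% of 1.5-fold and 52% of 2-fold changes between resolutions were recovered. A gene that did not pass there may therefore still have differed. Each SE is the fold change divided by the root of F. P-values measure the spread between 4 plates only. Where leaving out a plate left 1 in a group, that plate was assumed to vary like the others.

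The members and gene lists were chosen with earlier results of these data known. Named besides the members were up to 3 genes of each list with the largest fold change past the threshold, CDH1, EPCAM, VIM and FN1, and the 10 highest and 5 lowest mean rho with the summed level, of which 1 is not reported here. Alternatives were thinning, no mitochondrial limit, mitochondrial rows left out, another score, 2 groups in place of 3, no filter on low counts, a replicate block and each plate left out. The tests, levels and concentrations without the richest cells, and the tests within EMT-low or within G1 cells, were chosen after seeing the data. The well barcodes were not used.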

Additional observations from a re-analysis of the deposited data

Results flagged for a closer look

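Wells left out for a mitochondrial share over 40% but with enough features carried envelope transcripts at a higher density than the cells kept, 2.55, 2.91, 5.93 and 3.95 UMIs of the 9 genes per 10000 in low-resolution replicates 1 and 2 and high-resolution replicates 1 and 2, against 2.18, 1.69, 1.46 and 0.914. These 167 wells held 2029 UMIs of the 9 genes, of which SPRR1B made up 129, 253, 583 and 219 in the 4 plates. The 222 wells with under 2000 features held 18, 27, 21 and 13 such UMIs in the 4 plates, above the 3 counts that a count of 0 allows. Per 10000 that was 0.456, 0.712, 0.899 and 1.07, which in high-resolution replicate 2 lay above the density of the cells kept.

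The log2 ratios of SPRR2D in G2M to G1 cells were 0.03 and 1.45 at low resolution and -0.87 and -2.83 at high resolution, so that the signs were opposite and the means differed by 2.59. The first of these is close to 0 (7 UMIs in G2M and 17 in G1 cells), and in low-resolution replicate 2 a single cell held 21 of the 27 UMIs in G2M cells. The difference was not tested, and it rests on 51 UMIs in G2M cells and 127 in G1 cells. No group had the 4 samples that a search for samples far from the others needs.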

How the results depend on the processing

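The fall of all 8 tested genes in EMT-high cells kept its direction and passed in all 111 gene values computed under its alternatives, and 3812 to 3940 genes in all were called when 1 plate was left out. Of 87 alternative values between resolutions 9 lost and 8 gained their call. With DESeq2 1050 of all 19290 genes were called there. The number of members called there was 1 with DESeq2 and 5 without the richest cells (chosen after seeing the data), ran from 1 to 4 when 1 plate was left out, with 1 without high-resolution replicate 2, and all genes called ran from 982 to 1172 in place of 1547. SPRR3 passed in each of these. The direction reversed for SPRR1A without low-resolution replicate 1 (0.07) or high-resolution replicate 2 (0.22), for SPRR2A without low-resolution replicate 2 (0.30), and for SPRR2D thinned (-0.13) or without low-resolution replicate 1 (-0.22), none of these past the threshold. Over the plates left out SPRR1A ran from -1.69 to 0.22, SPRR2A from -1.63 to 0.30 and SPRR2D from -0.22 to 0.90, and SPRR2D in G2M cells from -1.26 to 0.25. The causes were not tested.

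Thinned to 10000 UMIs, with fewer genes tested, 2950 genes were called by EMT group in place of 4633, 2966 with no replicate block (no plate term), 73 in place of 254 for the difference of that effect between resolutions, 2462 in place of 4852 for S and 2713 in place of 4926 for G2M. Within EMT-low cells 2591 and 2880 were called. The plates left out gave 3804 to 4254 genes for S and 3888 to 4446 for G2M, with 5 to 7 members. The mean share of cells with any of the 9 genes, 78.4%, became 48.5% thinned and 56.6% at 2 or more UMIs, and 76.7% to 80.5% without 1 plate. The rho of the summed level with the EMT score, -0.582, became -0.446 thinned and ran from -0.603 to -0.573 without 1 plate, and the median over pairs from 0.0860 to 0.104.

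The replicate numbers were not seen to pair the plates (correlation of same-numbered deviations -0.0241 over 12437 genes). With the replicate block 2023 genes and 4 members were called between resolutions. With 2 plates per group, and SPRR2A, SPRR2D and SBSN at 107, 219 and 15 UMIs in all, small differences in these genes were not detectable at this depth.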
